A study of Mus musculus with 8 samples.

Results

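The replication-dependent histone genes code for the H1, H2A, H2B, H3 and H4 proteins that package newly made DNA. They were taken as every gene whose symbol begins with Hist1h, Hist2h, Hist3h or Hist4h, which gave 67 of the 21895 genes with a deposited value. By class, 6 of them are H1 genes, 18 are H2A genes, 18 are H2B genes, 12 are H3 genes and 13 are H4 genes. By cluster, 54 lie in Hist1 on chromosome 13, 10 in Hist2 on chromosome 3, 2 in Hist3 on chromosome 11 and 1 in Hist4 on chromosome 6. RNA was sequenced from the cochlea, the hearing organ of the inner ear, of wild-type (WT) mice and of mice lacking miR-29a (miR-29a-/-, KO), all on the C57BL/6 background, in 4 WT and 4 KO libraries numbered WT1 to WT4 and KO1 to KO4. Mice of both sexes from heterozygous breeding were used, and the series record gives their age as 21 days, whereas the methods give an older age. The whole cochlea was the sample, so every value is a mixture of cell types, and a change in the number of dividing cells cannot be told apart from a change of histone mRNA in each cell. Nothing says that each library came from a separate animal, so p-values measure the spread between these libraries, which may in part be technical.

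As background, most cells switch these genes on in S phase, when new chromatin is assembled, and switch them off again afterwards. Their mRNAs generally end in a short stem-loop and not in a poly(A) tail, and the stem-loop binding protein SLBP holds that structure during processing, export and translation. Many H2A and H2B genes stand head to head and share one promoter region. The libraries were made from total RNA after ribosomal RNA had been removed and were primed with random oligonucleotides, so capture did not need a poly(A) tail.

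The stem-loop is shown for 1 called gene of each class, because it is the element that sets these mRNAs apart and because its letters divide the H4 genes from the rest. The GENCODE transcripts of all 67 genes were searched in the sense strand for the letters GGNNCTTTTNAGNGCC, and 42 genes held them. In the lines below, from 5′ to 3′ along the mRNA and in DNA letters, the capitals are the 16 bases that matched, with 5 bases on each side, and the positions are those of GRCm38.
Hist1h1c (H1), chr13:23739507-23739532, plus strand: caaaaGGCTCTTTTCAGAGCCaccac
Hist2h2ac (H2A), chr3:96220413-96220438, minus strand: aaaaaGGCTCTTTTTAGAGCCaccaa
Hist1h2bh (H2B), chr13:23542923-23542948, minus strand: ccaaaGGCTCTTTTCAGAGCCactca
Hist2h3c2 (H3), chr3:96238480-96238505, minus strand: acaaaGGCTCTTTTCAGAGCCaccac
Hist4h4 (H4), chr6:136803993-136804018, minus strand: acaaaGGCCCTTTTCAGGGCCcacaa

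All 9 H4 genes with a match had a stem that begins with GGCCC and ends with GGGCC, and the 33 matching genes of the other 4 classes had GGCTC and GAGCC in those places. Within the loop, the base after TTTT was C in 33 genes, A in 6 and T in 3. Of the 25 genes without a match, 14 have a longest transcript under 420 bases in the annotation, so that no match says only that these letters are not in the annotated transcript.

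Promoters were shown where an H2A and an H2B gene share them. RefSeq promoter sequences on GRCm38, from 250 bases before to 50 bases after each start, were found for 61 of the 67 genes. The octamer ATTTGCAT, read on both strands, is known to bind the factor Oct-1. It occurred in 7 of 17 H2A promoters and 7 of 16 H2B promoters, in 0 of 28 promoters of the other classes, and in 1.74% of all 32851 promoters of the same length. CCAAT, also on both strands, occurred in every H1, H2A, H2B and H3 promoter and in 3 of 12 H4 promoters, against 37.4% of all promoters. TATAAA, on both strands too, occurred in 35 of 61, against 13.6%. The 60-base windows below hold the octamer in capitals, with TATAAA or its reverse complement TTTATA also in capitals where it lies in the window. Each pair of lines gives the same stretch of DNA as read towards either gene.
Hist1h2ah (H2A), chr13:22035765-22035824, minus strand: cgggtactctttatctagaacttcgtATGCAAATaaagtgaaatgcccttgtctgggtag
Hist1h2bk (H2B), chr13:22035765-22035824, plus strand: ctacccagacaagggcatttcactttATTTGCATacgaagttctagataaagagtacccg
Hist1h2ae (H2A), chr13:23571315-23571374, minus strand: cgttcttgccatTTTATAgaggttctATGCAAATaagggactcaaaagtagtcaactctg
Hist1h2bg (H2B), chr13:23571315-23571374, plus strand: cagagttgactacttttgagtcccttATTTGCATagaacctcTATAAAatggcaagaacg

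Values are FPKM, fragments divided by transcript length and by the number of mapped fragments. FPKM carry no counts, so the depth behind each value is unknown. The total FPKM ran from 249221 to 288695. For genes above 0 in every library, the median ratio to the gene's geometric mean was 0.776 in WT1 and 0.94 to 1.09 in the others. The typical gene was thus listed lower in WT1, and the main fit was not scaled for this. miR-29a itself is not among the genes analysed here, and the genotypes therefore rest on the labels. Libraries stood apart within both groups. WT1 and WT3 lay at opposite ends of the WT group, and KO4 lay below the other KO libraries, as the histone values themselves show.

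The summed FPKM of the 67 genes was 6695.8 in WT1, 1968.5 in WT2, 567.3 in WT3 and 2162.4 in WT4, against 7774.6 in KO1, 8974.5 in KO2, 10334.0 in KO3 and 2994.0 in KO4. The sums of KO1, KO2 and KO3 exceeded those of all WT libraries, that of KO4 exceeded those of WT2, WT3 and WT4, and WT1 lay between KO4 and KO1, so that the groups overlapped. As a share of all FPKM in the library, histone mRNA took 2.65%, 0.786%, 0.225% and 0.86% in WT1 to WT4 and 3.05%, 3.27%, 3.58% and 1.2% in KO1 to KO4. The WT libraries averaged 2848.5 ± 2661.5 and the KO libraries 7519.3 ± 3192.9 (SD, n = 4), a ratio of 2.64. No test was made of the sum, since the genes were chosen with results known.

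The order of the libraries recurred from gene to gene. Of the 66 genes with a value above 0, 52 were lowest in WT3 and 40 were highest in KO3. WT1 exceeded the other 3 WT libraries in 55 genes, KO4 was below the other 3 KO libraries in 56 genes, and KO4 exceeded WT2, WT3 and WT4 in 58 genes. The heat map of the 67 genes by library shows this order in all 5 classes.

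**Figure D1:**
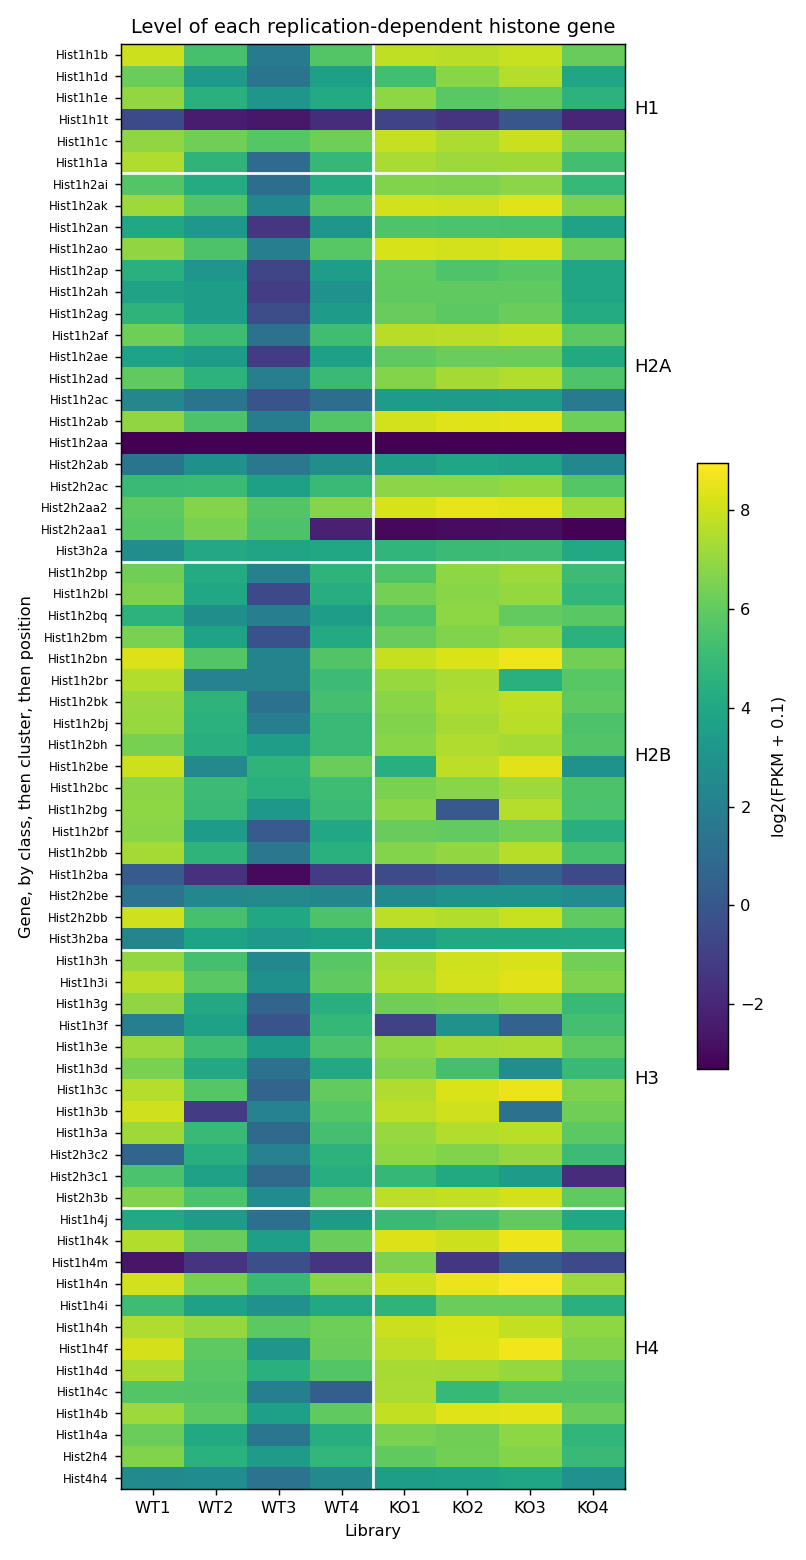
Level of each of the 67 histone genes, as log2(FPKM + 0.1), in 4 WT and 4 KO libraries, with 1 row per gene and white lines between classes and groups. WT3 is the darkest column in 52 genes, WT1 is brighter than the other WT libraries in 55 and KO4 is darker than the other KO libraries in 56.

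By class, the H2A sum was 824.2, 519.9, 150.9 and 461.7 in WT1 to WT4 and 2013.6, 2139.6, 2356.8 and 674.7 in KO1 to KO4. Here the sum in WT1 was below those of KO1 to KO3 by a ratio of more than 2, and the groups overlapped only because KO4 lay below WT1. The H2B sum was 2174.2, 347.7, 126.5 and 500.7 in WT and 1550.5, 2156.2, 2691.7 and 678.5 in KO, so that WT1 exceeded KO1, KO2 and KO4. H2A and H2B proteins pair in the nucleosome, but the ratio of their summed mRNA differed between libraries. H2A over H2B was 0.379 in WT1 and between 0.876 and 1.5 in the other 7 libraries. H2A made up 12.3% of the histone sum in WT1 and 21.4% to 26.6% in the others.

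For H1, H3 and H4 too, the sum was lowest in WT3, and WT1 lay between KO4 and KO1. H1, the linker histones, summed to 750.6, 176.7, 68.7 and 187.2 in WT and to 778.0, 677.3, 899.0 and 239.3 in KO, with WT1 above KO2. The H3 sum was 1430.5, 340.8, 47.1 and 486.2 in WT and 1528.9, 1953.6, 1941.4 and 669.2 in KO. The H4 sum was 1516.3, 583.5, 174.2 and 526.6 in WT and 1903.5, 2047.9, 2445.1 and 732.2 in KO. The ratio of the KO mean to the WT mean was 2.19 for H1, 3.67 for H2A, 2.25 for H2B, 2.64 for H3 and 2.55 for H4. Whether the classes differ in this ratio was not tested. H2A over H4 was the ratio of classes that separated the groups, at 0.544, 0.891, 0.866 and 0.877 in WT and 1.06, 1.04, 0.964 and 0.921 in KO, among 6 ratios examined.

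**Figure D2:**
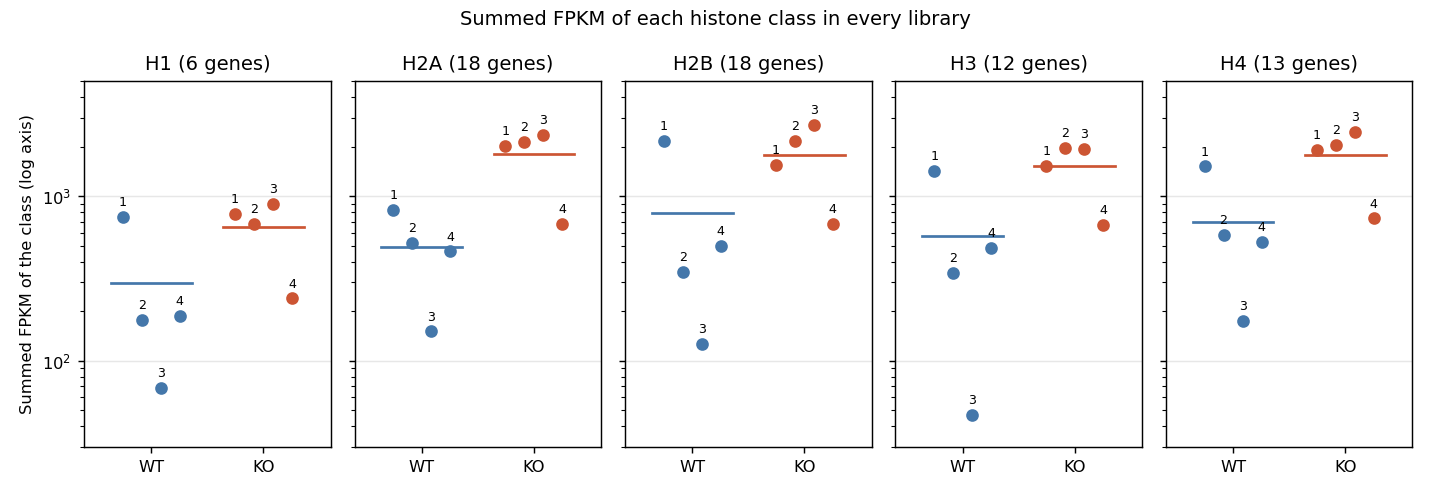
Summed FPKM of each histone class on a log axis, with 1 numbered point per library and a line at the mean of each group (n = 4). WT1 lies among KO1 to KO3 for H1 and H2B, below them for H3 and H4, and farthest below them for H2A. KO4 is the lowest KO library in every class.

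By cluster, the Hist1 genes held 85.7% of the mean WT sum and 86.5% of the mean KO sum. The Hist1 and Hist2 sums overlapped between the groups. The Hist3 genes summed to 11.4, 30.7, 23.6 and 28.5 in WT and to 38.7, 50.7, 51.1 and 35.8 in KO, with every KO library above every WT library. Hist4h4, the only Hist4 gene, was separate too, and WT1 was the highest WT library in neither of these clusters.

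Each gene was then compared between the 4 KO and 4 WT libraries by limma on log2(FPKM + 0.1), over the 14990 genes whose mean FPKM reached 0.5, and log2 fold changes (KO over WT) are given on that scale with their standard error (SE). Of the 67 histone genes, 65 entered this test. Hist1h1t, a linker histone of the testis, and Hist1h2aa, which was listed at 0 in all 8 libraries, were below the filter. At an unadjusted two-sided p under 0.05, the call rule of the study, 33 of the 65 were higher in KO and 1 was lower, against 4.61% of all tested genes higher and 0.507% lower (5.12% in either direction). The study used that threshold in a count test on fewer libraries per group, without saying which. The log2 fold change was above 0 in 61 of the 65. Its median was 2.06, beside 0.10 over all tested genes. With Benjamini-Hochberg adjustment over all genes, 0 of the 65 and 0 of all 14990 genes passed 0.05 in limma, 767 passed unadjusted, and the lowest adjusted p of a histone gene was 0.922.

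**Figure D3:**
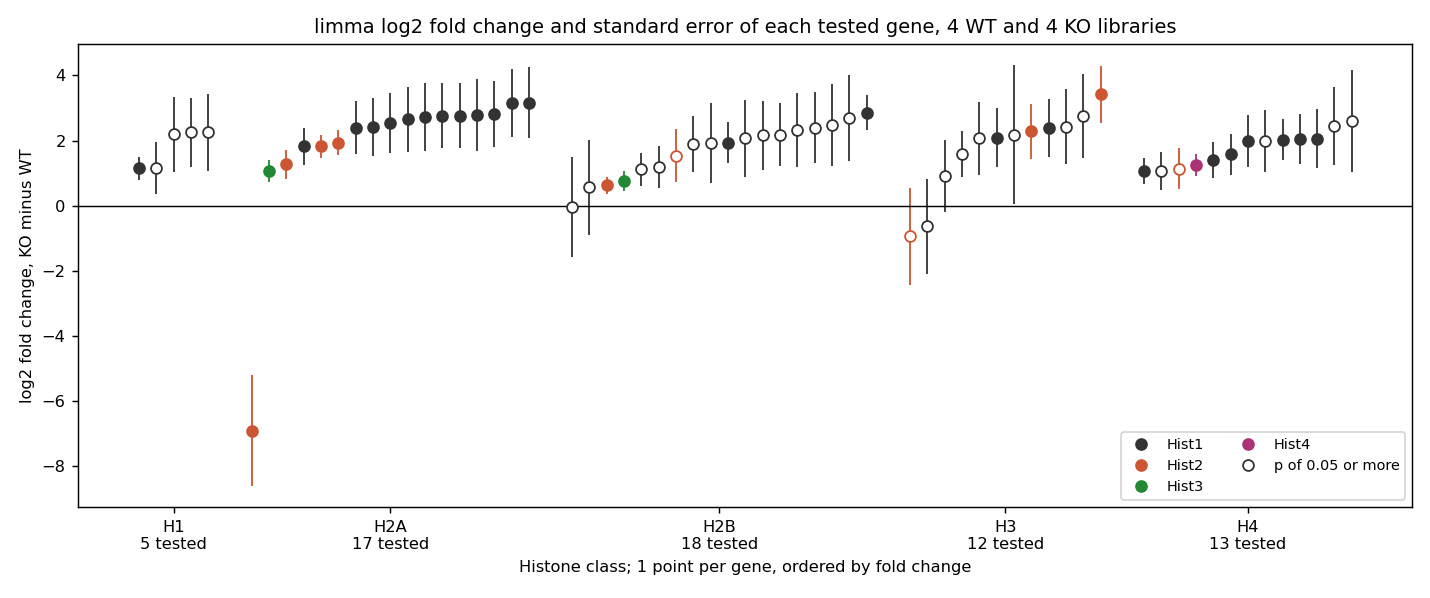
limma log2 fold change of KO over WT (vertical axis, with standard error bars) for each of the 65 tested histone genes, grouped by class along the horizontal axis, where filled points have an unadjusted p under 0.05 and colours give the cluster. In H2A all 17 points are filled and 16 lie above 0, whereas in H2B 4 of 18 are filled.

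The number of calls depended on single libraries, as did that of all genes. Without WT1, 56 of the 65 histone genes were higher in KO, while 12.1% of all tested genes were higher and 7.4% were lower. Without KO1, 18 of the 64 histone genes then tested were higher (3.67% of all genes), without KO2 13 of 65 (2.16%) and without KO3 13 of 65 (1.95%). Each of these fits also called 1 histone gene lower. The median log2 fold change was 2.77 without WT1 and 1.22 without WT3, the lowest library. In the 6 libraries numbered 1 to 3, 30 genes were higher and 1 was lower, against 4.23% and 0.281% of all tested genes (4.51% in either direction). In that fit 1 gene of all tested, or 0.00669%, passed the adjusted threshold, Hist2h2aa1, which was lower in KO. The fit leaves out WT4, where Hist2h2aa1 was at 0.115 FPKM. Summed with its near-identical copy Hist2h2aa2 over all 8 libraries, its log2 fold change was 1.14. The genes called only with all 8 libraries were Hist1h3i, Hist2h2be and Hist3h2ba.

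The groups did not overlap for 9 histone genes with KO above WT and for 1 with KO below WT, against 3.02% and 0.487% of all tested genes (3.5% in either direction). The 9 were Hist1h2bq, Hist1h2ah, Hist1h2ae, Hist2h2ac, Hist2h2aa2, Hist2h2be, Hist2h3c2, Hist3h2a and Hist4h4. Of these, Hist1h2bq, Hist1h2ah, Hist1h2ae, Hist2h2aa2 and Hist2h3c2 belong to sets of genes with shared sequence, described below. The summed FPKM of each of those sets overlapped between WT and KO.

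Among H2A genes, 16 of 17 tested were higher in KO and 1, Hist2h2aa1, was lower, with a median log2 fold change of 2.53. The 12 tested H2A genes of the Hist1 cluster were all higher, with log2 fold changes of 1.82 to 3.16. In H2A, WT1 exceeded the lowest of KO1 to KO3 in 1 of 17 genes. Without KO1, KO2 or KO3, 8, 7 and 7 H2A genes were called higher.

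Hist2h2ac (ENSMUSG00000068855, chr3:96220361-96220880) had the lowest p of the H2A genes. Its FPKM was 31.1, 32.7, 12.5 and 32.0 in WT and 112.6, 114.4, 127.2 and 53.1 in KO. Every KO library was above every WT library, and WT1 lay with WT2 and WT4. The log2 fold change of Hist2h2ac was 1.93 (SE 0.38, adjusted p = 0.922 in limma).

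Hist1h2ah and Hist1h2ae, the H2A genes of the promoter windows above, had the largest increases of the class. FPKM of Hist1h2ah was 13.4, 11.2, 0.37 and 7.85 in WT and 61.0, 62.3, 61.5 and 14.9 in KO. FPKM of Hist1h2ae was 13.6, 11.1, 0.335 and 12.5 in WT and 59.1, 69.7, 73.6 and 17.7 in KO. Both were separate between the groups by the small step from WT1 to KO4, with log2 fold changes of 3.15 and 3.16. WT3 was far below the other WT libraries for both genes.

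Hist1h2ab, one of the most abundant Hist1 H2A genes, stood at 119.2, 45.9, 3.48 and 51.3 in WT and 278.6, 327.7, 354.8 and 76.1 in KO. WT1 exceeded KO4, so the groups overlapped, and the log2 fold change was 2.81 (SE 1.02, adjusted p = 0.947 in limma), with the call lost without KO1, KO2 or KO3. In Hist2, Hist2h2ab was at 2.59, 6.99, 2.86 and 6.52 in WT and 11.4, 15.0, 13.5 and 5.19 in KO, with KO4 below WT2 and WT4 and the call lost without KO2 or KO3. Hist3h2a (chr11:58954685-58956830) was at 6.56, 17.1, 14.2 and 16.2 in WT and 27.2, 33.1, 33.7 and 17.4 in KO. Its groups were separate only by the step from 17.1 in WT2 to 17.4 in KO4, and WT1 was the lowest of all 8 libraries.

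Hist2h2aa1 (ENSMUSG00000064220, chr3:96245497-96246082) was the gene called lower in KO. Its FPKM was 53.6, 88.0, 46.2 and 0.115 in WT and 0.0206, 0.0312, 0.0369 and 0.00559 in KO, a log2 fold change of -6.90 (SE 1.71, adjusted p = 0.922 in limma). WT4 was thus far below the other WT libraries. Of its 50-base words, 89.4% occur in other genes, and 89.2% occur in Hist2h2aa2 (chr3:96239749-96240276), an H2A gene in the same cluster on the other strand. FPKM of Hist2h2aa2 was 60, 101, 51.6 and 106.2 in WT and 298.2, 356.3, 347.6 and 141.6 in KO, a log2 fold change of 1.82. In the 3 WT libraries where Hist2h2aa1 had a value above 1, the copies had similar values, and in the other 5 libraries nearly all of the signal was listed under Hist2h2aa2. The stem-loop window of both reads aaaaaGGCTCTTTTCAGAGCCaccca. Summed, they had 113.5, 189.0, 97.8 and 106.4 in WT and 298.2, 356.3, 347.6 and 141.6 in KO, and the log2 fold change of the sum was 1.14 (SE 0.35, adjusted p = 0.952 in limma) and overlapped through KO4 and WT2. The call of lower expression was lost with the copies summed.

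**Figure D4:**
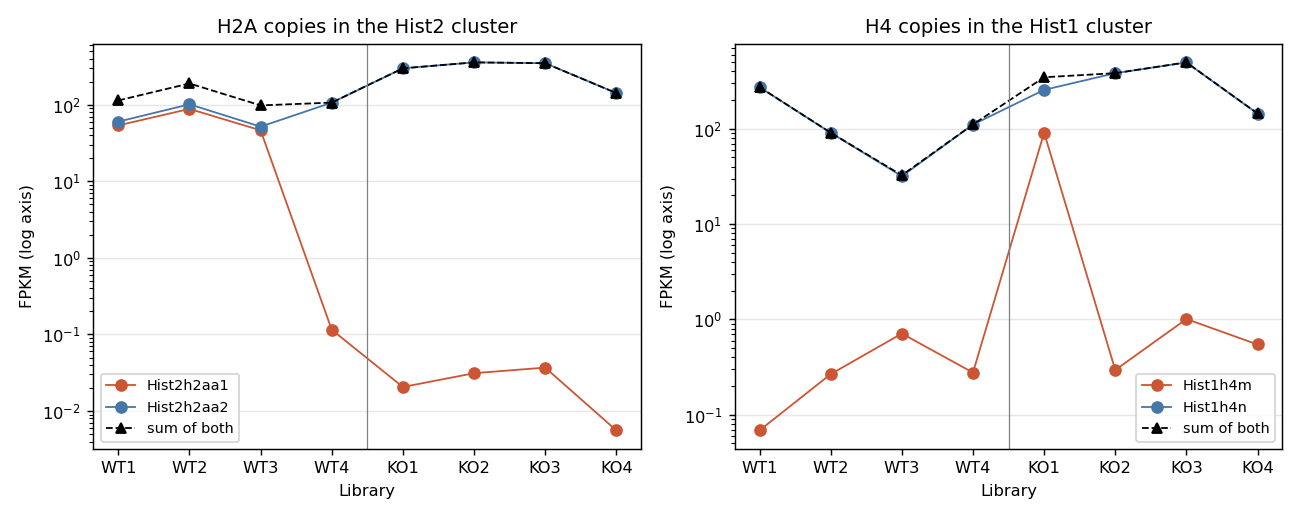
FPKM on a log axis in each of the 8 libraries for 2 pairs of near-identical genes, Hist2h2aa1 with Hist2h2aa2 and Hist1h4m with Hist1h4n, with the sum of each pair as triangles. Hist2h2aa1 falls from 46.2 in WT3 to 0.115 in WT4 while the sum of the pair goes from 97.8 to 106.4, and Hist1h4m reaches 91.0 in KO1 alone.

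Among H2B genes, 4 of 18 were higher in KO and 0 were lower, with a median log2 fold change of 1.94, and 2 were higher with equal column totals. WT1 exceeded the lowest of KO1 to KO3 in 14 of 18 H2B genes, and without WT1, 15 of 18 H2B genes were called higher. Whether H2A and H2B genes differ in their response was not tested. The Hist1 H2B genes that were not called, 13 of 15, had p from 0.0528 to 0.984.

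Hist1h2bq (ENSMUSG00000069307) had the lowest p of all histone genes. Its FPKM was 24.5, 6.79, 3.67 and 11.2 in WT and 46.8, 118.1, 64.6 and 56.3 in KO, with the groups separate, and the log2 fold change was 2.86 (SE 0.54, adjusted p = 0.922 in limma). The deposited locus of Hist1h2bq spans 94446 bases (chr13:21716404-21810849), whereas GENCODE gives it 3586 bases. That locus holds 11 other histone genes, 5 of them on the same strand. Reads of those genes could therefore enter its value, which was not tested. Of its 50-base words, 97.3% also occur in Hist1h2br, at 183.9, 4.32, 4.4 and 34.5 in WT and 134.2, 167.7, 22.2 and 53.6 in KO, where the groups overlapped. Hist1h2bq belongs to a group of Hist1 H2B copies whose sum was not called. Hist1h2bh also had a wider locus, of 50871 bases with 11 other histone genes inside, 4 of them on the same strand. Reads of those genes could enter its value too, which was not tested. It shares 17.9% of its words and is in no group of copies, and its call held with copies summed. FPKM of Hist1h2bh was 87.0, 21.6, 11.2 and 31.5 in WT and 107.5, 180.6, 155.2 and 48.7 in KO (log2 fold change 1.94, adjusted p = 0.947 in limma). In all, 9 histone genes had such wider loci, each with 2 to 15 other histone genes inside, of which 0 to 8 were on the same strand. Of the 9, 3 were called higher.

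The most abundant H2B genes were not called. Hist1h2bn stood at 321.4, 50.5, 4.55 and 49.2 in WT and 234.3, 302.5, 397.1 and 81.3 in KO, and Hist2h2bb (chr3:96269752-96270132) at 265.9, 41.5, 16 and 46.6 in WT and 209.1, 186.1, 246.3 and 62.0 in KO. In both genes WT1 was above KO1, and the log2 fold changes were 2.32 and 1.54, with standard errors of 1.13 and 0.81. Low-abundance H2B genes outside Hist1 had another order of libraries. Hist2h2be (chr3:96221119-96223738), which shares 0% of its 50-base words with any other gene, was at 2.49, 5.24, 5.34 and 4.88 in WT and 5.57, 7.82, 7.56 and 6.04 in KO, with WT1 the lowest. Hist3h2ba (chr11:58948920-58949533) was at 4.88, 13.6, 9.43 and 12.3 in WT and 11.5, 17.6, 17.4 and 18.3 in KO, again with WT1 the lowest. Their log2 fold changes were 0.62 (SE 0.27) and 0.76 (SE 0.32), and the call was lost in 4 and 5 of the 8 fits with 1 library left out, for Hist3h2ba also without WT1.

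Hist1h2bg, the H2B partner of Hist1h2ae in the second promoter window, was at 116.7, 31.3, 9.14 and 32.7 in WT and 110.0, 0.991, 193.8 and 43.8 in KO. Its value in KO2 was thus 0.046% of the H2B sum, against a median of 6.82% over the libraries. The log2 fold change was -0.03 with all libraries and 1.59 without KO2.

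In 12 head-to-head pairs of an H2A and an H2B gene with at most 600 bases between them, the ratio of H2A to H2B in WT1 was the lowest of the 8 libraries in 4 and among the lowest 2 in 9, with Hist1h2aa of 1 pair listed at 0. For Hist1h2ah over Hist1h2bk, the pair of the first window, the ratio was 0.0967 in WT1 and 0.164 to 0.439 in the other WT libraries. Of tested genes with the octamer in the promoter, 6 of 6 H2A genes and 0 of 7 H2B genes were called higher. Of those without it, 9 of 10 H2A genes and 3 of 9 H2B genes were.

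Among H3 genes, 4 of 12 were higher in KO and 0 were lower, with a median log2 fold change of 2.13. Without WT1, 8 of the 12 were called higher, whereas 2 were without KO1 and 1 was without KO2 or without KO3. Hist2h3c2 (ENSMUSG00000081058, chr3:96238108-96239127) had the largest increase of all histone genes. Its FPKM was 1.51, 21.2, 4.27 and 24.7 in WT and 116.4, 97.8, 128.4 and 34.5 in KO, with the groups separate, and the log2 fold change was 3.43 (SE 0.88, adjusted p = 0.922 in limma). WT1 was the lowest library for this gene, unlike for most H3 genes.

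Hist2h3c2 shares 63.5% of its 50-base words with Hist2h3c1 (chr3:96246685-96248509), whose FPKM was 44.4, 13.0, 1.81 and 20 in WT and 29.1, 17.4, 11 and 0.199 in KO. Hist2h3c1 was highest in the library where Hist2h3c2 was lowest, WT1, and its log2 fold change was -0.93 with a standard error of 1.49. With a further copy, Hist2h3b, they summed to 143.2, 79.0, 12.3 and 101.4 in WT and to 358.1, 344.5, 426.7 and 97.0 in KO, a log2 fold change of 2.12 (SE 0.78, adjusted p = 0.952 in limma), with KO4 below WT1 and WT4. Hist2h3b alone was at 97.3, 44.7, 6.2 and 56.7 in WT and 212.6, 229.3, 287.2 and 62.3 in KO. It was called, but lost the call without KO1, without KO2 and without KO3.

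The most abundant H3 genes lie in Hist1. Hist1h3c was at 190.0, 51.8, 1.52 and 63.3 in WT and 181.1, 310.2, 387.2 and 96.8 in KO, with WT1 above KO1. Its log2 fold change was 2.76 but with a standard error of 1.30, and it was not called. Hist1h3h, with 2.38 (SE 0.88), and Hist1h3i, with 2.09 (SE 0.91), were called. Hist1h3h lost the call without KO2 and without KO3. Hist1h3i lost the call under 6 of the other settings and when any library other than WT1 or KO4 was left out.

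Hist1h3f and Hist1h3b had library values that their neighbours did not share. Hist1h3f was at 3.82, 12.8, 0.816 and 28.8 in WT and 0.429, 7.56, 1.35 and 39.0 in KO, with the highest values in WT4 and KO4, and a log2 fold change of -0.64 with a standard error of 1.46. Hist1h3b was at 265.8, 0.345, 4.25 and 53.1 in WT and 214.8, 272.1, 2.36 and 79.3 in KO. WT2 and KO3 were thus the lowest libraries for Hist1h3b, with WT3 near KO3 and the others far above. Hist1h3b shares 60.4% of its words with other genes.

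Among H4 genes, 8 of 13 were higher in KO and 0 were lower, with a median log2 fold change of 1.99. Between 2 and 12 of them were called higher when 1 library was left out, 12 without WT1, and 3 with median-ratio scaling and 5 with the replicate block. Hist4h4 (ENSMUSG00000096010, chr6:136801553-136804415), which shares 7.07% of its words, was at 5.62, 6.15, 2.44 and 5.39 in WT and 11.3, 12, 15.5 and 7.21 in KO. The groups were separate and WT1 lay among the WT libraries, with a log2 fold change of 1.25 (SE 0.34, adjusted p = 0.947 in limma). With any 1 library left out, its log2 fold change ran from 0.95 to 1.45 and the call held.

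Hist1h4j (chr13:21735064-21735837) was at 16.7, 11, 2.2 and 10.1 in WT and 30.7, 40.2, 61.6 and 15.6 in KO, with KO4 just below WT1. Hist1h4b was at 141.6, 60.6, 11.9 and 61.1 in WT and 228.3, 321.7, 354.6 and 74.2 in KO. Their log2 fold changes were 2.03 and 2.06. Hist1h4b lost the call without KO1, KO2 or KO3. Hist1h4n, the gene with the highest mean FPKM of the 67, was at 272.9, 90.7, 31.8 and 110.6 in WT and 255.6, 382.4, 495.5 and 143.9 in KO, and its log2 fold change was 1.58 (SE 0.64, adjusted p = 0.947 in limma), with the call lost in 6 of the 8 fits with 1 library left out. Its near-identical copy Hist1h4m had 91.0 in KO1 and at most 1.01 in the other 7 libraries. Hist1h4f, also abundant, was at 287.9, 59.0, 8.54 and 72.9 in WT and 213.6, 315.7, 417.5 and 98.6 in KO and was not called, with a standard error of 0.95. Hist2h4, the H4 gene of the Hist2 cluster, was at 98.3, 23.1, 10.9 and 27.9 in WT and 61.4, 82.2, 101.6 and 31.9 in KO, with WT1 above 3 KO libraries.

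Among H1 genes, 1 of 5 tested was higher in KO and 0 were lower, with a median log2 fold change of 2.19. Hist1h1c (ENSMUSG00000036181, chr13:23738808-23740367), the H1.2 gene, was the one called. It was at 120.3, 78.3, 52.6 and 76.4 in WT and 232.6, 171.3, 249.0 and 92.4 in KO, with KO4 between WT2 and WT1, and its log2 fold change was 1.15 (SE 0.36, adjusted p = 0.947 in limma). Hist1h1b, the H1.5 gene, was at 255.1, 41.0, 3.12 and 51.2 in WT and 219.2, 202.2, 243.1 and 69.0 in KO, with WT1 the highest of all 8 libraries. Its log2 fold change was 2.19 with a standard error of 1.15. Hist1h1d was at 74.0, 9.92, 2.56 and 12.2 in WT and 38.1, 107.4, 194.2 and 15.5 in KO. Its locus of 51686 bases held 13 other histone genes, 8 of them on the same strand. Without WT1, 5 of the 5 tested H1 genes were called higher. In WT3, Hist1h1c made up 76.6% of the H1 sum, against 16% in WT1.

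Reads of many histone genes can be placed in more than 1 gene. Of the 67 genes, 32 share over 50% of their 50-base words with other genes, and 19 of these 32 were called higher and 1 lower, beside 14 of 33 and 0 among the other tested genes. Linking pairs of genes in which over 50% of the words of the one with fewer words occur in the other gave 7 groups with 44 genes, the largest of 11 genes. With each group summed, 28 units were tested, of which 15 were higher in KO and 0 were lower. The share of all tested genes called in that fit was not taken. With genes kept apart, that share was 4.61% higher and 0.507% lower. The sum of the Hist1 H2A group was 526.2, 224.5, 18.3 and 246.3 in WT and 1285.5, 1355.0, 1510.2 and 363.9 in KO (log2 fold change 2.70, standard error 0.98, called), and that of the Hist1 H2B group was 1567.5, 226.1, 80.8 and 364.5 in WT and 1045.9, 1538.6, 1943.3 and 478.8 in KO (1.79, standard error 0.85, not called). In 11 genes, at least 1 library lay below 10% of the gene's median share of its class, among them Hist1h2bg in KO2, Hist1h3b in WT2 and KO3, Hist1h4c in WT4 and Hist1h3d in KO3. Whether reads were placed differently in those libraries was not tested. Of tested genes with the stem-loop letters, 18 of 41 were called higher (median log2 fold change 1.93), and of those without, 15 of 24 (2.14).

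The variant histones, most of which are made throughout the cell cycle from mRNAs with poly(A) tails, were listed for comparison. Of 11, 5 were higher in KO and 0 were lower, against 4.61% and 0.507% of all tested genes. Their median log2 fold change was 0.72, and their sum was 202.2 to 275.0 in WT and 311.1 to 489.6 in KO. H3f3a, which codes for H3.3, was at 32.5, 30.3, 31.7 and 33.1 in WT and 60.5, 70.0, 90.0 and 48.6 in KO (log2 fold change 1.04, standard error 0.19, adjusted p = 0.922 in limma). The WT libraries were close together for H3f3a, WT1 and WT3 included. H2afx, the H2A.X gene, which has both kinds of mRNA end, was at 25, 26.3, 9.29 and 30.5 in WT and 86.5, 100.6, 120.1 and 38.1 in KO, a log2 fold change of 1.93. H2afz, the H2A.Z gene, had 0.72. H3f3b, the second H3.3 gene, overlapped, at 39.7 to 70.5 in WT and 58.4 to 71.2 in KO.

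Of the 22 genes for histone mRNA transcription and processing that were found of 24 listed, 1 was higher in KO and 0 were lower, with a median log2 fold change of 0.12. Since 4.61% of all tested genes were called higher, 1 of 22 is near the background and is no result about the list. The gene called was Slbp, the stem-loop binding protein itself, at 9.24, 8.88, 5.80 and 10.2 in WT and 19.5, 20.8, 18.9 and 12.4 in KO (log2 fold change 1.06, standard error 0.23, adjusted p = 0.922 in limma). All KO libraries were above all WT libraries for Slbp. Eri1, an exonuclease that trims histone mRNA ends, and Lsm10, of the U7 particle, came next with log2 fold changes of 0.47 and 0.62, and were not called. Npat, the transcription factor of the histone locus body, had 10.9, 7.86, 7.32 and 7.91 in WT and 7.61, 8.06, 6.70 and 7.38 in KO.

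Of 31 DNA replication genes, 8 were higher in KO and 0 were lower (4 and 0 in the 6 libraries numbered 1 to 3), with a median log2 fold change of 0.81, and their sum was 91.0 to 357.8 in WT and 225.3 to 390.8 in KO. Dut, which keeps uracil out of DNA, E2f1, a transcription factor of S phase entry, and Pcna, the polymerase clamp, had the lowest p, with log2 fold changes of 0.87, 1.12 and 0.76. Of 12 mitosis genes, 0 were called in limma, with a median log2 fold change of 1.75, and the sum was 298.4 in WT1, 4.31 in WT3 and 92.7 to 230.4 in KO. The mitosis genes with the lowest p were Plk1 (0.0836), Cdk1 (0.0891) and Birc5 (0.0896). Of 13 histone chaperones, 2 were higher, Nasp and Chaf1a, with log2 fold changes of 0.49 and 0.91, and 0 were lower. In the 6 libraries 4 were higher, and the shares of all tested genes are those given above.

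Markers of blood-forming cells also differed between libraries. WT3 was the lowest of the 8 libraries and WT1 the highest of the WT libraries in 9 of 9 erythroid precursor and 10 of 10 neutrophil granule genes. The sum of 9 erythroid precursor genes was 7491.5 in WT1, 2388.7 in WT2, 449.6 in WT3 and 3607.1 in WT4, and 4910.9 to 12128.0 in KO, with 2 of 9 higher in KO (0 in the 6 libraries). The sum of 10 neutrophil granule genes was 10082.3 in WT1, 73.9 in WT3 and 1772.6 to 5336.9 in KO, so that WT1 exceeded every KO library, with 0 of 10 called in limma. The sum of 10 B lineage precursor genes was 35.1 to 68.7 in WT and 69.2 to 125.8 in KO, where KO2 was highest. The groups were separate only by the small step from WT1 to KO4. Ebf1 alone was at 22.9 to 35.2 in WT and 29.6 to 37.8 in KO, and made up 32.7 of the 35.1 in WT3. Of the 10, 5 were higher, among them Vpreb1, Igll1 and Dntt with log2 fold changes of 2.16, 2.38 and 2.23. Beside the counts of these lists, 4.61% of all tested genes were higher and 0.507% lower (4.23% and 0.281% in the 6 libraries). No gene of these lists was under 0.1 FPKM in every library. Of the 14 cochlear genes, WT1 was the lowest of the WT libraries in 12 and WT3 the highest of all 8 in 12, the opposite of the histone order. Their sum, 1496.4 to 2330.2 in WT and 1637.2 to 2087.1 in KO, is mostly that of Coch, which alone was at 1231.1 to 1927.4. Of these 14, 0 were higher and 1 was lower, Tectb, the gene of the tectorial membrane protein beta-tectorin (log2 fold change -1.19, adjusted p = 0.947 in limma). Its groups overlapped, with 0.824 in WT1 and 0.936 in KO4. Since 5.12% of all tested genes were called in either direction, 1 of 14 is near the background and is no result about the list. The part of blood-forming or dividing cells in the histone values was not tested.

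**Figure D5:**
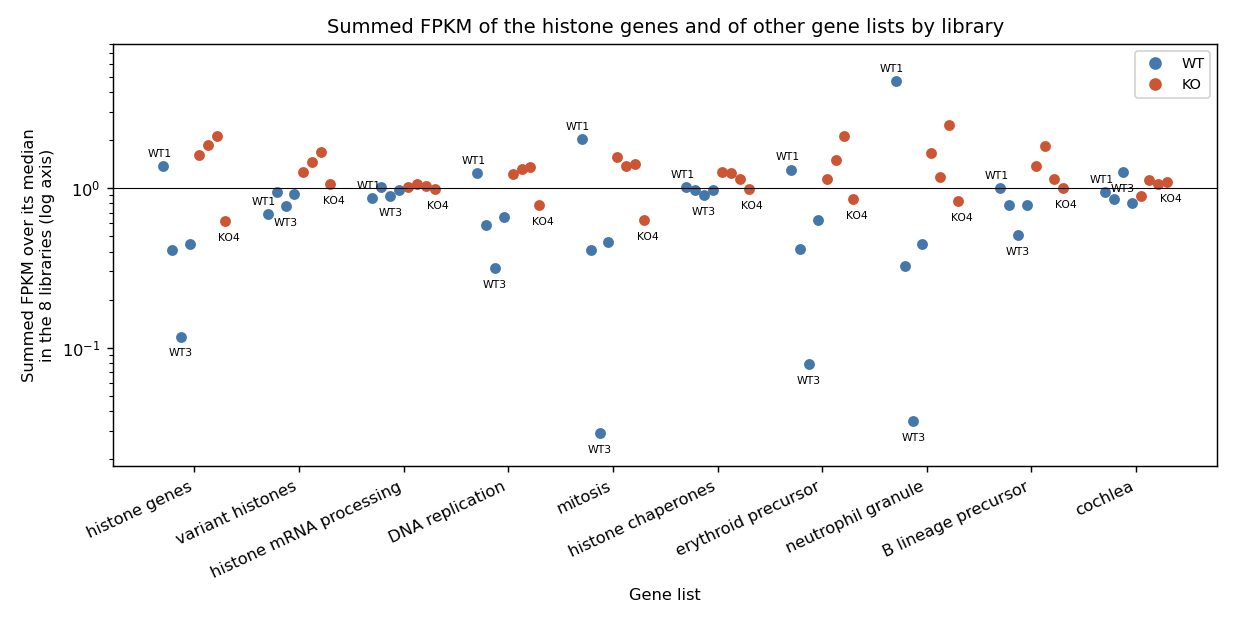
Summed FPKM of the 67 histone genes and of 9 other gene lists in each library, divided by the list's median over the 8 libraries, on a log axis. WT3 is lowest and WT1 is highest of the WT libraries for the histone, DNA replication, mitosis, erythroid and neutrophil lists, whereas the cochlear sums, mostly those of Coch, stay between 1496.4 and 2330.2 FPKM.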

How the data were processed

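Cochlear RNA of 4 WT and 4 KO samples was used. Per the labels, libraries were strand-specific and made after removal of ribosomal RNA, and RNase R, an enzyme that degrades linear RNA, was used to fragment the RNA; its effect on short mRNAs was not tested. The authors mapped paired-end reads with Hisat2 2.0.4 and deposited FPKM per gene. The counting tool and annotation are not given in the sources used here. The submitters' processing notes name mm9, but 19771 of 21895 genes, and 58 of the 67 histone genes, have the GENCODE vM21 coordinates of GRCm38. All columns were used (0 left out).

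FPKM were tested as log2(FPKM + 0.1) with limma 3.58.1 in R 4.3.3 (genotype as the only factor, variance trend, mean FPKM of at least 0.5, no further scaling), since the study's count test could not be used on FPKM. Calls had an unadjusted two-sided p under 0.05 and any fold change, and Benjamini-Hochberg adjustment ran over all tested genes. A fold change on this scale understates that of low genes. The fit was tested on simulated data. Sums, ratios and figures were made in Python 3.11.15.

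Shared sequence was the share of 50-base words of a gene's GENCODE transcripts found in other genes. Named histone genes, 29 in all, were the 3 with the lowest p and the 2 with the highest mean in each class, those with a negative log2 fold change, up to 3 whose call differed between 8 and 6 libraries, and all of Hist2 to Hist4; Hist1h2ah, Hist1h2ae, Hist1h2bk, Hist1h2br, Hist1h3b, Hist1h4m, Hist1h4c, Hist1h3d, Hist1h1t, Hist1h2aa and, among the other lists, H3f3b, Npat and the markers of cell types were named after their values were seen. The histone genes and all lists were chosen with earlier results of these data known. The alternatives were a pseudocount of 1, no filter, a minimum mean FPKM of 1, equal column totals, median-ratio scaling, quantile normalization, no variance trend, copies summed, replicates 1 to 3, the replicate number as a block, and each library left out.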

Additional observations from a re-analysis of the deposited data

Results flagged for a closer look

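Within each group of 4 libraries, the highest and the lowest FPKM of the named and class values were compared with their nearest neighbour by Dixon's ratio, the gap divided by the range. Of 78 groups, 6 had a ratio above its 95% critical value, and chance gives about 1 in 20. WT1 was far above the other WT libraries for Hist1h1d (74.0 FPKM, ratio 0.865), Hist1h2bn (321.4 FPKM, ratio 0.855) and Hist2h2bb (265.9 FPKM, ratio 0.878). WT1 was far below them for Hist2h2be (2.49 FPKM, ratio 0.838). WT3 was far below them for Hist2h2ac (12.5 FPKM, ratio 0.922). KO1 was far below the other KO libraries for Hist3h2ba (11.5 FPKM, ratio 0.873).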

How the results depend on the processing

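The median log2 fold change of each class and cluster stayed above 0 under every alternative except copies summed, where it was not taken. The log2 ratio of sums was taken only with median-ratio scaling, equal column totals, replicates 1 to 3 and each library left out. It stayed above 0 in all of these. The number of histone genes higher in KO was 13 to 56 when 1 library was left out, with 1 lower each time. It was 30, with 1 lower, with the replicate number as a block. With copies summed, 15 of 28 units were higher and 0 were lower, and the share of all genes in that fit was not taken. The correlations of the deviations of same-numbered libraries were 0.42, -0.24, -0.17 and 0.21. So few pairs cannot decide whether the same number stands for anything shared. The block by replicate number gave 738 higher and 100 lower among all genes. Over all genes, leaving out 1 library gave 292 to 1810 higher and 35 to 1112 lower. Higher and lower genes numbered 438 and 142 with equal column totals, 403 and 361 with median-ratio scaling, and 378 and 547 with quantile normalization, and 208 were lower with no filter and 42 with replicates 1 to 3. The median log2 fold change of all genes was 0.10 without scaling, 0.00 with median ratios and -0.04 with quantiles, and 27 and 32 histone genes were then higher and 1 lower. The log2 fold change changed sign in Hist1h2bg (0.14 with a pseudocount of 1, -0.90 to 1.59 with 1 library left out), Hist1h3f (-1.74 to 0.33) and Hist2h3c1 (0.78 with replicates 1 to 3, -1.82 to 0.54 with 1 library left out); the cause was not tested. Without depth, counting error could not be given.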
